A study of Quercus robur with 12 samples.

Results

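The drought response of the taproot tip was examined in pedunculate oak (Quercus robur), a species that builds a deep taproot. The sequenced small RNAs came from the root tip's meristematic zone, where new cells are made. Well-watered control seedlings (TR-CT) and drought-stressed seedlings (TR-DS) gave 3 libraries each, which are 6 of the 12 libraries of the series, and every miRNA row of the count table was used. Of its 75 miRNAs, 51 bear known names from 23 families (the prefix qrb- is left out here), and the name of the other 24 is their own sequence. The labels list no mutant, transgene or allele in any group. The seedlings of both groups were 1 year old, grew in rhizotrons and were acclimatized for 8 weeks. Soil moisture of the drought group was then held at 25% of the fully watered level for 4 weeks. Per the study's methods, water in this treatment was supplied near the bottom of the rhizotron and was within reach only in its deeper part. Each biological replicate pooled 10 to 15 root tips. The study raised seedlings in containers, moved to rhizotrons later, or from acorns sown in the rhizotron, and its methods describe drought for both kinds. Which kind a library came from is not given in the labels, so a part of cultivation in the differences between groups was not tested. The table holds miRNAs only, so the labelled tissue was not checked against marker genes.

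A mature plant miRNA guides an Argonaute protein to transcripts that are almost fully complementary to it, and the transcript is then cut or its translation is blocked. In root tips many of these targets encode transcription factors. HD-ZIP III factors pattern the vascular tissue and the meristem, GRAS factors of the HAIRY MERISTEM type keep stem cells undifferentiated, growth-regulating factors (GRF) promote cell division, and auxin response factors (ARF) carry the auxin signal. Other families act on nutrient uptake, copper proteins or the small RNA machinery itself. A change in the make-up of cells and a change of a miRNA per cell cannot be told apart in such bulk libraries.

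The sequences of the miRNAs that took most of the counts, or whose libraries separated best, are shown 5′ to 3′ with the seed (bases 2 to 8) in capitals. Known miRNAs are given by family, because the sequences come from the study's target table, which names the family and not the member. For miR396 it lists a further sequence, with the seed CUCAAGA, which is not shown here.
miR166: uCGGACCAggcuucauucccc
miR166: uCUCGGACcaggcuucauucc
miR159: uUUGGAUUgaagggagcucua
miR162: uCGAUAAAccucugcauccag
miR172: aGAAUCUUgaugaugcugcau
miR164: cAUGUGCUcuagcucuccagc
miR396: uUCCACGGcuuucuugaacug
novel_miRNA_CCGGUCUGCUCGUCCC: cCGGUCUGcucguccc
novel_miRNA_AGUGGAAGGAUUGGAAAGACA: aGUGGAAGgauuggaaagaca
novel_miRNA_UUUGGAAACGCACUUGAAUCG: uUUGGAAAcgcacuugaaucg
None of these 10 sequences shares its seed with another of the list. The pair of miR166 sequences are shifted frames of one stretch, which moves the seed. The listed site of the miR164 sequence (Qrob_T0323590.2, not annotated) had only 14 of 21 bases paired. Whether this sequence is the miR164 strand that acts on the known targets of the family was not tested. The sequence-named miRNA listed first is 16 nt long, below the size selection of 18 to 30 nt, and 75.0% of its bases are G or C.

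Target sites that the target table pairs with miR166, miR396, miR167 and miR172 are shown in the same direction. Bases that form Watson-Crick pairs with the miRNA are in capitals. The miR167 sequence is not among those shown above. The transcript names follow the study's annotation.
Qrob_T0357230.2 (ATHB-15, an HD-ZIP III gene), site of miR166: cuGGAAUGAAGCCUGGUCCGg
Qrob_T0602040.2 (REVOLUTA, an HD-ZIP III gene), site of miR166: cuGGgAUGAAGCCUGGUCCGg
Qrob_T0026800.2 (GRF4), site of miR396: CcGUUCAAGAAAGCCuGUGGAA
Qrob_T0190770.2 (ARF6), site of miR167: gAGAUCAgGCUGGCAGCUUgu
Qrob_T0162660.2 (not annotated), site of miR172: cUGCAGCAUCAUCAgGAUUCU
With the first miR166 sequence shown, the ATHB-15 site had 18 of 21 bases paired and the REVOLUTA site 17. The second miR166 sequence paired with all 20 bases of its ATHB-15 site, with a gap of 1 base. The miR172 site had 19 of 21 bases paired. Transcript levels were not analysed here.

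The libraries did not group by treatment. Total counts were 445139, 1267473 and 660151 in TR-CT against 371099, 409456 and 876789 in TR-DS. The 16-nt sequence took 55.1%, 89.1% and 73.3% of them in TR-CT against 72.6%, 83.4% and 74.5% in TR-DS, a difference of 4.32 percentage points that was smaller than the spread within TR-CT (72.5% ± 17.0 against 76.8% ± 5.78, SD, n = 3; two-sided exact permutation test, p = 0.8, smallest possible p = 0.1). Without TR-CT replicate 1 the difference was -4.37 points. In the edgeR fit its log2FC was 0.062 (SE 0.79). Of 4 library-level quantities compared this way (this share, total counts, counts without the 16-nt sequence and detected miRNAs), the adjusted p lay between 0.667 and 0.8. The 95% Wilson interval of the lowest share was 55.0% to 55.3% and that of the highest 89.1% to 89.2%, and such intervals cover counting error only. Without the 16-nt sequence, the remaining miRNAs rested on 199650, 138088 and 176026 counts in TR-CT but on 101684, 67863 and 223380 in TR-DS.

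TR-CT replicate 3 resembled 2 of the drought libraries, and TR-DS replicate 2 resembled the other 2 control libraries. Across the 75 miRNAs, Spearman's rho of log2 CPM (read abundance scaled to a library size that edgeR's TMM factors adjust) was 0.94 between TR-CT replicates 1 and 2 and also 0.94 between TR-CT replicate 2 and TR-DS replicate 2. It was 0.92 between TR-CT replicate 3 and TR-DS replicate 1. Within TR-DS, rho was 0.86 between replicates 1 and 2, 0.83 between replicates 1 and 3 and 0.74 between replicates 2 and 3. These coefficients are across miRNAs within library pairs, miRNAs are not independent replicates, and no test is attached. The values between groups (0.68 to 0.94) covered those within TR-CT (0.78 to 0.94) and within TR-DS (0.74 to 0.86). The labels were used as given.

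**Figure D1:**
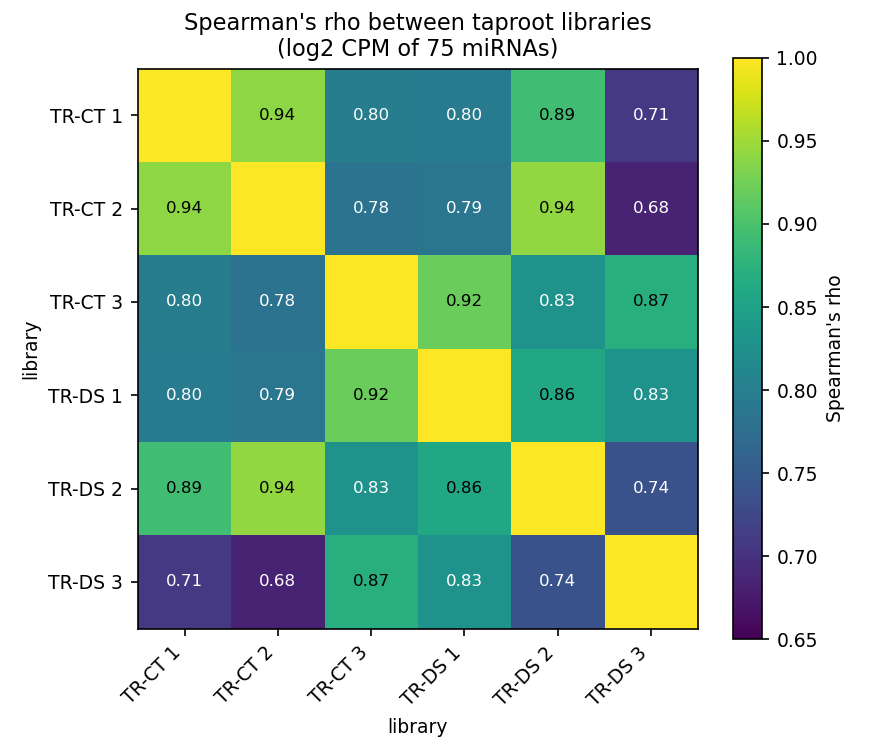
Spearman's rho of log2 CPM over the 75 miRNAs for each pair of the 6 taproot libraries, with colour and number giving rho and library names on both axes. TR-CT 3 lies nearest to TR-DS 1 (0.92), and TR-DS 2 lies nearest to TR-CT 2 (0.94).

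The make-up of the libraries showed the same split. Of the counts without the 16-nt sequence, the miR166 family took 19.0%, 17.9% and 51.6% in TR-CT against 52.9%, 13.3% and 56.2% in TR-DS. Its share was thus above 50% in TR-CT replicate 3 and TR-DS replicates 1 and 3, and below 20% in the other libraries. The summed share of the 23 other sequence-named miRNAs was low where that of miR166 was high, with 31.5%, 45.5% and 14.5% in TR-CT against 10.3%, 51.8% and 5.32% in TR-DS. miR162, which targets the transcript of the miRNA-processing enzyme DICER-LIKE 1, took 0.844%, 1.13% and 5.89% in TR-CT against 5.47%, 1.40% and 6.46% in TR-DS.

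**Figure D2:**
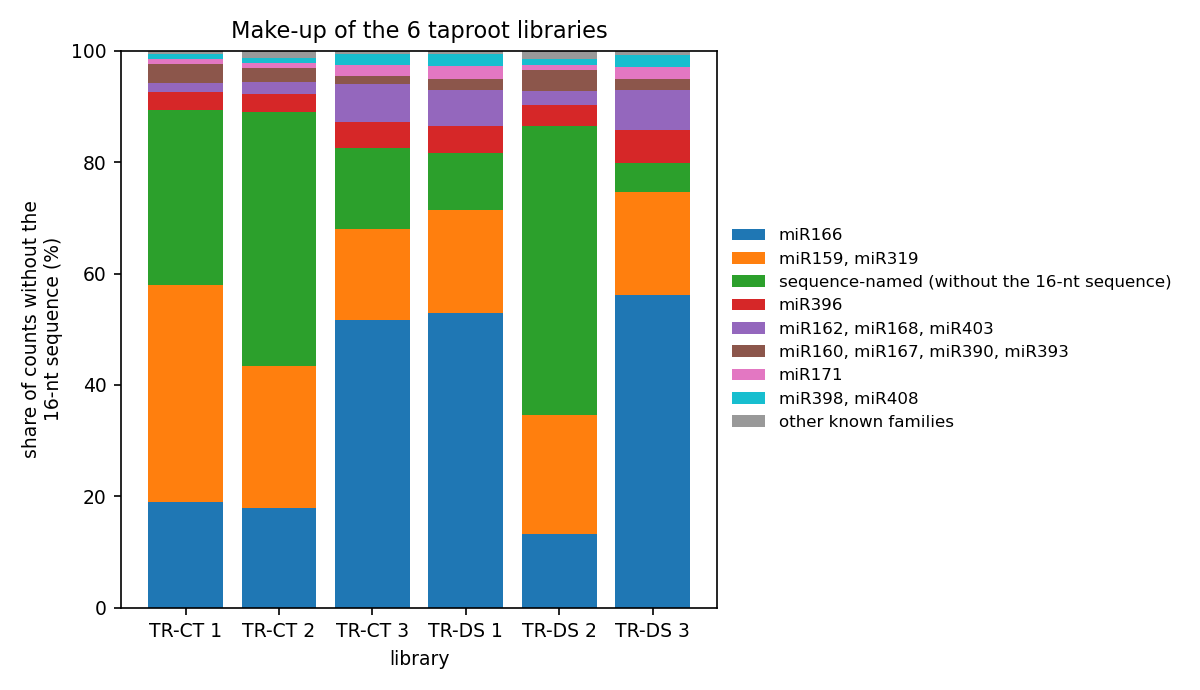
Share of the counts, without the 16-nt sequence, that each group of families took in each of the 6 taproot libraries, as stacked bars in percent. The miR166 share is 51.6% in TR-CT 3, 52.9% in TR-DS 1 and 56.2% in TR-DS 3, and at most 19.0% in the other libraries.

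The same order recurred miRNA by miRNA. In 21 of the 75, all with known names, TR-CT replicate 3 was the highest control and TR-DS replicate 2 the lowest drought library. In 28, of which 17 were sequence-named, TR-CT replicate 3 was the lowest control and TR-DS replicate 2 the highest drought library. Whether the libraries differ in dissection, RNA quality or labelling was not tested.

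Drought was compared with control by edgeR's quasi-likelihood F test with 3 libraries a group. None of the 75 miRNAs (0.0%) passed a Benjamini-Hochberg adjusted p of 0.05. By DESeq2 1 of the 71 with an adjusted p passed (miR172a, 1.41%), by edgeR's likelihood ratio test 2 (miR172a and miR166f) and by edgeR's exact test 0. At an unadjusted p of 0.05 or below the quasi-likelihood test had 3 miRNAs (4.0%), miR172a, miR166f and miR166b. Positive log2 fold changes (log2FC, TR-DS against TR-CT) were found for 39 of 75 (52.0%), with a median of 0.019. This split moved with the scaling, to 37.3% positive by library size alone, 62.7% with RLE factors and 42.7% when the library size left out the 16-nt sequence. The median moved by -0.50, 0.25 and -0.15 in that order.

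The spread between replicates was wide. The biological coefficient of variation, edgeR's estimate of the relative spread between replicates, was 1.08 in the taproot libraries and 0.565 in the lateral root libraries of the same series. The median standard error of a log2FC was 1.19 (range 0.63 to 4.00), and the median half-width of the 95% interval was 2.68. Of the 75 intervals, 72 held 0 and 65 held both -1 and 1, so that a difference of that size could not be told from none for those miRNAs. The range of log2 CPM within at least 1 of the groups exceeded the absolute difference of the group means in 74 of 75 miRNAs, miR172a being the exception.

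**Figure D3:**
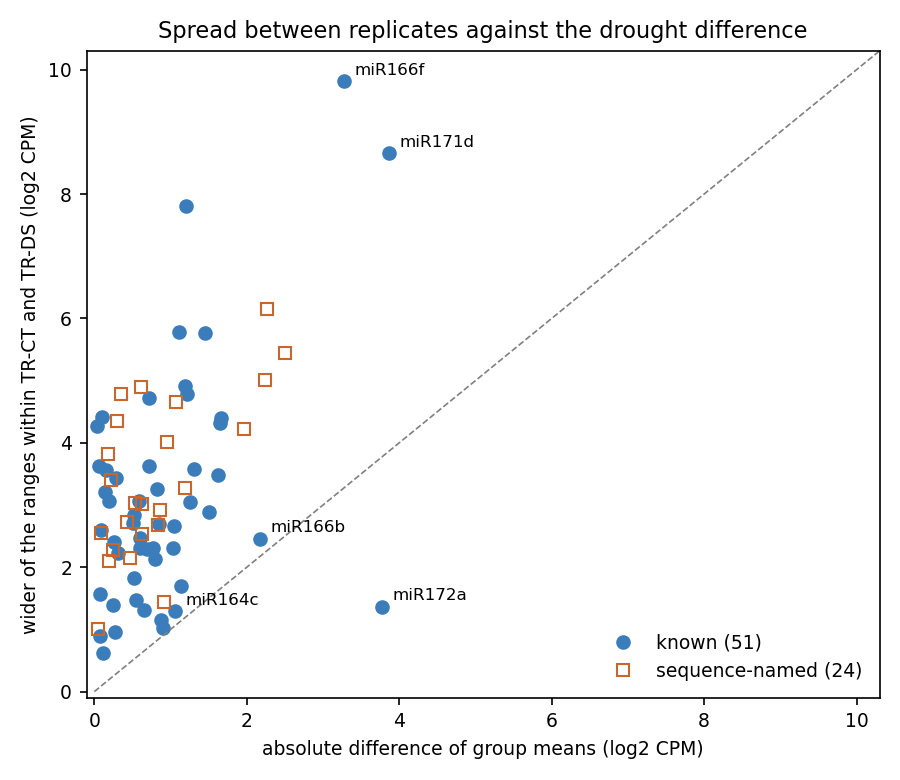
Each point is 1 of the 75 miRNAs, with the absolute difference of the group means of log2 CPM on the horizontal axis and the wider of the ranges within TR-CT and within TR-DS on the vertical axis; the dashed line marks equal values. Of the labelled miRNAs, miR172a alone lies below the line.

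In 3 of 75 miRNAs (4.0%) the groups did not overlap. miR172a was higher (1.33% of all) and miR166b and miR164c were lower (2.67% of all) in every TR-DS library than in any TR-CT library. By a two-sided exact permutation test each had p = 0.1, the smallest that 3 against 3 libraries allow. With labels assigned at random, full separation in either direction has a probability of 0.1 for a single miRNA, which is above the share seen. With 2 libraries left in a group, separation is easier to meet. The count was 10 of 75 (13.3%) without TR-CT replicate 1, 6 (8.0%) without TR-CT replicate 2, 23 of 74 (31.1%) without TR-CT replicate 3, 6 of 75 (8.0%) without TR-DS replicate 1, 21 (28.0%) without TR-DS replicate 2 and 10 of 74 (13.5%) without TR-DS replicate 3. No miRNA passed the adjusted threshold in any of these 6 fits, and the lowest adjusted p by edgeR was 0.118, without TR-CT replicate 3 and also without TR-CT replicate 1. The sign of the log2FC stayed the same in all 6 for 36 of the 75 miRNAs and changed in at least 1 for 39.

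miR172a was the miRNA whose groups stood furthest apart for their spread. The family targets APETALA2-like transcripts and acts in the change from juvenile to adult growth. Its raw counts were 0, 1 and 0 in TR-CT against 22, 8 and 43 in TR-DS. All drought libraries had counts, while 2 control libraries had none, and a count of 0 allows up to 3 counts. The pooled counts of 1 against 73, scaled by the library sizes adjusted with TMM factors, gave a ratio of 125 (95% counting interval 21.7 to 4994). The edgeR log2FC was 6.29 (SE 1.76, 95% interval 2.31 to 10.28), with an unadjusted p of 0.00594 and an adjusted p of 0.446. By DESeq2 its adjusted p was 0.0276, the only call that tool made, and over all alternatives it lay between 0.00817 and 0.954. Leaving out single libraries gave log2FC values from 5.24 to 7.92. TR-CT held a single count in all.

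Of the juvenile-phase families, miR156 and miR157, which target SQUAMOSA PROMOTER-BINDING-LIKE transcripts, showed no such separation. miR156b had 432, 1532 and 499.7 normalized CPM in TR-CT against 739.8, 2116 and 623 in TR-DS. Its highest control and highest drought library were both replicate 2, and the log2FC was 0.50 (SE 0.87). miR157a had 75.9, 143 and 435 CPM in TR-CT against 19.9, 361 and 484 in TR-DS, so that the lowest library of all was TR-DS replicate 1. miR156a had raw counts of 15, 0 and 0 in TR-CT against 0, 0 and 123 in TR-DS, and miR156c appeared only in TR-CT replicate 3, with 7 counts. Of the 4 members of both families 3 had a positive and 1 a negative log2FC, and none passed. With miR172a, 4 of the 5 age-pathway members were positive (median 0.50).

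The 6 members of the miR166 family, the HD-ZIP III regulators, differed from each other in the order of the libraries. miR166d, the most abundant of them, had 7325, 8791 and 56479.9 CPM in TR-CT against 103428, 9547 and 106157 in TR-DS. TR-CT replicates 1 and 2 and TR-DS replicate 2 lay together at the bottom, well apart from the other libraries. The means were 24199 ± 27966 (SD, n = 3) in TR-CT and 73044 ± 55007 (SD, n = 3) in TR-DS, and the log2FC was 1.59 (SE 1.12, 95% interval -0.94 to 4.13; edgeR adjusted p = 0.997). It was 3.18 without TR-CT replicate 3 (adjusted p = 0.249, the lowest over all alternatives, which reached 1) and between 1.00 and 2.11 without any other library. miR166a had 4433, 4643 and 10432 CPM in TR-CT against 9015, 5764 and 36529 in TR-DS. Its drought mean was carried by replicate 3, and the other drought libraries lay inside the range of the controls. The study gives miR166a and miR166d the same mature sequence, so how reads were divided between them is uncertain.

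miR166b was the abundant member whose groups separated, with the lower values in TR-DS. It had 14917, 12650.3 and 34626 CPM in TR-CT against 8238, 5789.6 and 1493 in TR-DS, so that the lowest control was above the highest drought library. The means were 20731 ± 12086 (SD, n = 3) in TR-CT and 5174 ± 3414 (SD, n = 3) in TR-DS. The log2FC was -2.00 (SE 0.86, 95% interval -3.95 to -0.06) with an unadjusted p of 0.0446 and an edgeR adjusted p of 0.997. It stayed between -2.97 and -1.41 when single libraries were left out. Here TR-CT replicate 3 was the highest of all libraries and TR-DS replicate 3 the lowest, unlike the order seen for miR166d.

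In miR166c and miR166e, TR-CT replicate 3 was again the highest control and TR-DS replicate 2 the lowest drought library. miR166c had 213, 749.5 and 11783 CPM in TR-CT against 10486, 1457 and 2568 in TR-DS, and its log2FC went from 3.33 without TR-CT replicate 3 to -1.36 at the other extreme. miR166e had 6577, 4577 and 42192 CPM in TR-CT against 21774, 2690.2 and 16240.2 in TR-DS, with its highest value in a control. miR166f had raw counts of 0, 0 and 0 in TR-CT against 0, 0 and 2057 in TR-DS. All of its counts thus came from TR-DS replicate 3, and without that library there was nothing to compare. Its edgeR unadjusted p of 0.0183 (adjusted p = 0.685) therefore rests on a single library. Across the family, 4 log2FC values were positive and 2 negative (median 0.79), and none passed.

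**Figure D4:**
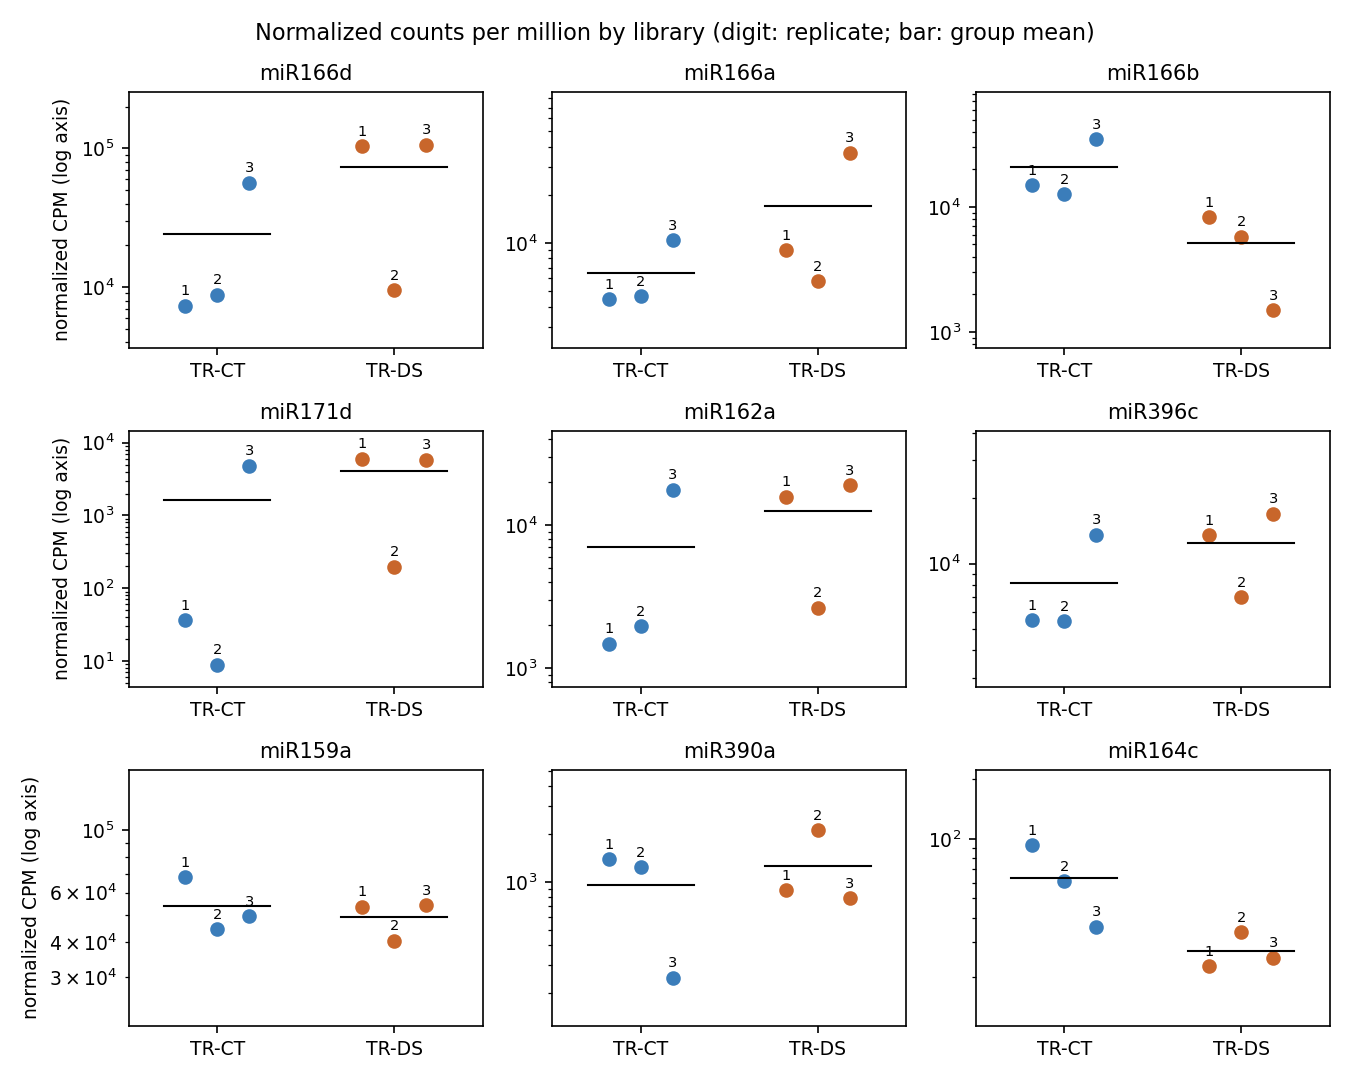
Normalized CPM on log axes for 9 known miRNAs, with each point a library, the digit its replicate number and the horizontal bar the group mean of 3 libraries. TR-CT 3 sits with TR-DS 1 and 3 for miR166d, miR171d, miR162a and miR396c, whereas the groups do not overlap for miR166b and miR164c.

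Among the 5 members of miR171, whose targets are GRAS factors of the HAIRY MERISTEM type, miR171d varied most. It had 36.2, 8.88 and 4799 CPM in TR-CT against 6018, 196 and 5850.5 in TR-DS. The libraries fell into a low set of TR-CT replicates 1 and 2 with TR-DS replicate 2 and a high set of the other 3. The edgeR log2FC was 1.32 (SE 1.90, 95% interval -2.97 to 5.61; adjusted p = 0.997). It was 7.46 without TR-CT replicate 3 (adjusted p = 0.118, where its range over all alternatives was 0.00107 to 1 and 1 of them passed) and between 0.69 and 1.88 without any other library. miR171b, at lower levels, had the same low and high sets, with 40.6, 31.7 and 424 CPM in TR-CT against 324, 33.6 and 236 in TR-DS and a log2FC of 0.26 (95% interval -2.61 to 3.13). miR171a and miR171c had other orders. miR171a had 517, 1017 and 888 CPM in TR-CT against 481, 1068 and 215 in TR-DS, and miR171c had 915, 482 and 178 in TR-CT against 142, 420.3 and 54.1 in TR-DS, each with its lowest value in TR-DS replicate 3. miR171e had raw counts of 65, 35 and 0 in TR-CT against 0, 10 and 0 in TR-DS, present exactly where miR171d was low. Of the family, 2 log2FC values were positive and 3 negative (median -0.46), and none passed.

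The 3 families that act on the small RNA machinery were measured at moderate to high levels. miR162a had 1487, 1973 and 17731 CPM in TR-CT against 15829.5, 2657 and 19035 in TR-DS. TR-CT replicate 3 again lay with TR-DS replicates 1 and 3, and the log2FC was 0.82 (SE 1.13; edgeR adjusted p = 0.997), or 2.85 without TR-CT replicate 3 (adjusted p = 0.249, range over all alternatives 0.249 to 1). miR168a, which targets the transcript of ARGONAUTE1, was far steadier. It had 962, 1221 and 1794 CPM in TR-CT against 1502, 863 and 1406 in TR-DS, with a log2FC of -0.076 (95% interval -1.67 to 1.51). miR403a, which targets ARGONAUTE2 in Arabidopsis, had 456, 694 and 1018 CPM in TR-CT against 1650.4, 1269 and 951 in TR-DS. The log2FC was 0.84 (SE 0.73), and the lowest drought library lay below the highest control.

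By mean CPM the most abundant known miRNA was miR159a, which targets GAMYB-like transcription factors. It had 68064, 44447 and 49407 CPM in TR-CT against 53495, 40482 and 54049.8 in TR-DS. The means were 53973 ± 12453 (SD, n = 3) in TR-CT and 49342 ± 7678 (SD, n = 3) in TR-DS, and its log2FC of -0.13 had the smallest standard error of all 75 (0.63, 95% interval -1.56 to 1.30). The sign turned to 0.048 with RLE factors. miR319a, a relative of miR159 that targets TCP factors, had 491, 151 and 109.5 CPM in TR-CT against 79.7, 224 and 83.1 in TR-DS, where the highest control was again far from the others (log2FC -0.96, SE 0.98).

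The GRF regulators of miR396 differed widely in level between members. miR396c had 5498, 5453 and 13607 CPM in TR-CT against 13482, 7011 and 16947 in TR-DS. Its means were 8186 ± 4695 (SD, n = 3) in TR-CT and 12480.2 ± 5043 (SD, n = 3) in TR-DS, the log2FC was 0.61 (SE 0.74, 95% interval -1.06 to 2.27), and the overlap came from TR-CT replicate 3, which exceeded TR-DS replicates 1 and 2. miR396b had 237, 195 and 320.0 CPM in TR-CT against 205, 109 and 98.9 in TR-DS, with an overlap of only the highest drought library and the lowest control. miR396a had raw counts of 18, 19 and 9 in TR-CT against 0, 0 and 61 in TR-DS. As with miR166f, its drought counts all came from TR-DS replicate 3.

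Of the 9 members of the auxin families, 7 had a positive and 2 a negative log2FC (median 0.40), and none passed. By library size alone 3 were positive, and with RLE factors 8. miR167a, which targets ARF6 and ARF8, had 3116, 1674 and 1600.1 CPM in TR-CT against 2091, 3525 and 1977 in TR-DS. The values overlapped, and the log2FC was 0.25 (SE 0.70). miR167b had 240.1, 129 and 1092 CPM in TR-CT against 1241, 252 and 1522 in TR-DS, with TR-CT replicate 3 beside TR-DS replicates 1 and 3. miR160b, which targets ARF10, ARF16 and ARF17 in Arabidopsis, had 16.8, 14 and 73.6 CPM in TR-CT against 162, 22.4 and 33 in TR-DS. The log2FC of 1.06 turned to -0.54 without TR-DS replicate 1.

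miR390a, which starts the production of small RNAs against ARF transcripts from TAS3, had 1389, 1233 and 248 CPM in TR-CT against 885, 2113 and 791 in TR-DS. Its lowest library was TR-CT replicate 3 and its highest TR-DS replicate 2, whereas for miR166d the former was the highest control and the latter the lowest drought library. miR393a, which targets the auxin receptors TIR1 and AFB, had 13.2, 3.8 and 404 CPM in TR-CT against 267, 0 and 670.1 in TR-DS. The log2FC was 1.16 (SE 1.95), 5.15 without TR-CT replicate 3 and -0.065 without TR-DS replicate 3.

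The 5 members of miR164, which targets NAC factors such as CUC2 and NAC1 in Arabidopsis, split by level. miR164c had 92.7, 60.9 and 35.9 CPM in TR-CT against 22.8, 33.6 and 25.1 in TR-DS, with no overlap between the groups. The means were 63.2 ± 28.4 (SD, n = 3) in TR-CT and 27.2 ± 5.72 (SD, n = 3) in TR-DS, and the log2FC of -1.22 (SE 1.06; edgeR adjusted p = 0.997) stayed between -1.53 and -1.16 when single libraries were left out. Its raw counts were 105, 48 and 21 in TR-CT against 8, 12 and 19 in TR-DS, so counting error weighs on each value. miR164d, the most abundant member, had 191, 207 and 210.5 CPM in TR-CT against 176, 115 and 348 in TR-DS. The controls lay inside the drought range, and the log2FC was 0.075 (95% interval -1.83 to 1.98). miR164a, miR164b and miR164e had at most 31 counts in a library and counts close to each other in each, with the highest in TR-DS replicate 1 and 0 or 1 in TR-DS replicate 3. Reads shared between these 3 cannot be told apart. Of the family, 4 log2FC values were positive and 1 negative (median 1.88), and none passed.

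Copper-related families had 3 members with positive log2FC values (median 0.67), of which 2 stayed positive by library size alone. miR398a, which targets copper/zinc superoxide dismutase transcripts, had 1006, 954 and 3561 CPM in TR-CT against 4442, 617 and 3727 in TR-DS. TR-DS replicate 2 was the lowest of all libraries, and the log2FC was 0.67 (SE 0.94). miR408a, which targets laccase and plantacyanin transcripts, had 557, 427 and 1399.9 CPM in TR-CT against 1642, 1012 and 2146 in TR-DS. Its means were 795 ± 528 (SD, n = 3) in TR-CT and 1599.9 ± 568 (SD, n = 3) in TR-DS (log2FC 1.01, SE 0.79, edgeR adjusted p = 0.997), and the overlap came from TR-CT replicate 3 alone.

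miR395, miR2111a, miR530a and miR2950a had low counts, and miR535a was counted in all 6 libraries at higher levels. The 6 members of miR395, which targets ATP sulfurylase and a sulfate transporter, had between 0 and 49 counts in a library. Their log2FC values lay between -0.87 and 0.45, with 3 on each side of 0, and that of the most abundant, miR395e, was -0.87 (SE 1.38). miR2111a had raw counts of 10, 9 and 0 in TR-CT against 0, 6 and 0 in TR-DS, in the same libraries as miR171e (log2FC -0.35, SE 2.27). In Lotus japonicus this miRNA moves from shoot to root and targets an F-box transcript. miR530a had 13, 8 and 0 raw counts in TR-CT against 0, 0 and 42 in TR-DS, and its log2FC of 1.36 turned to -5.28 without TR-DS replicate 3. miR2950a had at most 12 counts in a library (log2FC -0.062, SE 2.08), and miR535a had 147, 388 and 139 CPM in TR-CT against 105, 171 and 139 in TR-DS (log2FC -0.70, SE 0.88).

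**Figure D5:**
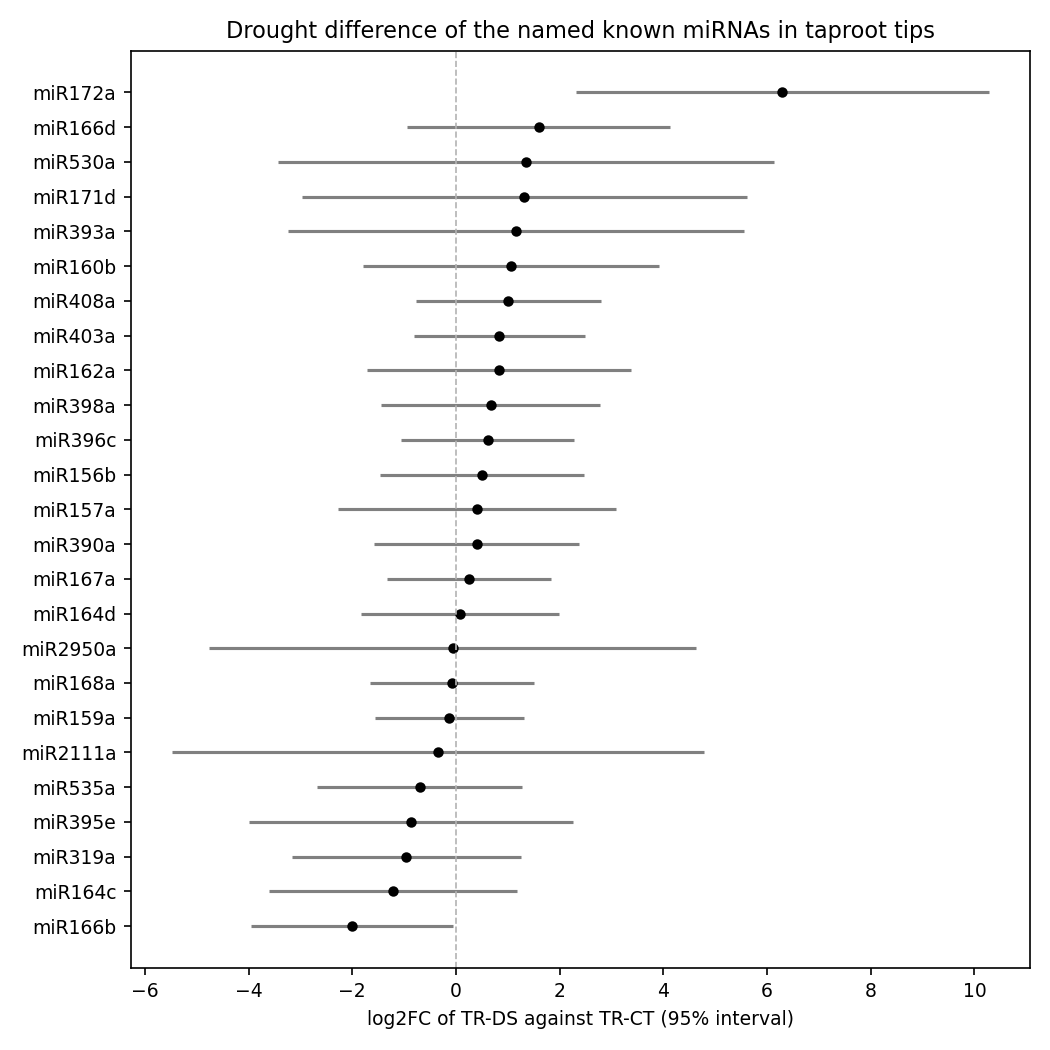
log2FC of TR-DS against TR-CT with its 95% interval from edgeR's quasi-likelihood fit for the leading member of each known family and for miR166b and miR164c. Of the intervals plotted, those of miR172a and miR166b leave out 0 and neither miRNA passes after adjustment over the 75 miRNAs.

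In 17 of the 24 sequence-named miRNAs TR-CT replicate 3 was the lowest control and TR-DS replicate 2 the highest drought library. Of the 24, 7 had a positive and 17 a negative log2FC (median -0.34), and none passed; by library size alone 2 were positive and with RLE factors 10. novel_miRNA_AGUGGAAGGAUUGGAAAGACA had 24686, 46299 and 27400.5 CPM in TR-CT against 16779.9, 54056 and 9311 in TR-DS. Both the highest and the lowest library were drought libraries, and the log2FC was -0.30 (SE 0.82). novel_miRNA_UUUGGAAACGCACUUGAAUCG had 15344, 16884 and 9693 CPM in TR-CT against 5924, 23189 and 3046 in TR-DS, again with TR-DS replicate 2 highest and TR-DS replicate 3 lowest. Its 9 listed target transcripts include Qrob_T0485420.2, annotated as an F-box/kelch-repeat protein, with 19 of 21 bases paired.

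Less abundant sequence-named miRNAs showed a similar order of libraries. novel_miRNA_AAAUGGGUGCGUUGGCAAGAAG had 7134, 6283 and 3009 CPM in TR-CT against 2976, 7154 and 1120.0 in TR-DS (log2FC -0.55, SE 0.84). novel_miRNA_UUAGUCCAAGACUCGGCCACA had 2398, 3978 and 729 CPM in TR-CT against 1221, 6185 and 584 in TR-DS (log2FC 0.17, SE 1.02). In both, TR-DS replicate 2 lay at or above the control replicates 1 and 2, and TR-DS replicate 3 was the lowest library.

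Some sequence-named miRNAs differ from each other by a single base or not at all, and are shown because their counts do not run in parallel.
novel_miRNA_UCGGUAAUGAUUUUGUGGAGUC: uCGGUAAUgauuuuguggaguc
novel_miRNA_UCGGUAAUGAUUUUCUGGAGUC: uCGGUAAUgauuuucuggaguc
They share the seed and differ by the substitution G15C, with positions counted from 1 at the 5′ end. novel_miRNA_UCGGUAAUGAUUUUGUGGAGUC had raw counts of 754, 5 and 10 in TR-CT against 7, 0 and 10 in TR-DS. TR-CT replicate 1 held almost all of them, and the log2FC went from -4.35 (SE 1.97, edgeR adjusted p = 0.997) to -0.32 without that library. novel_miRNA_UCGGUAAUGAUUUUCUGGAGUC had 113, 37 and 7 in TR-CT against 12, 23 and 4 in TR-DS, with a log2FC of -0.62 (SE 1.31). novel_miRNA_CUUCUGUUAGCUCUUAUGGA_1 and novel_miRNA_CUUCUGUUAGCUCUUAUGGA_2 have the same 20 bases, yet the first had raw counts of 761, 680 and 296 in TR-CT against 129, 203 and 158 in TR-DS and the second 60, 74 and 0 against 0, 5 and 0. How reads of identical sequences were assigned is not given in the sources used here, so these values are uncertain.

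Most miRNAs were detected throughout. Of the 75 miRNAs, 49 had counts in all 6 libraries. Detected miRNAs numbered 69, 72 and 63 in TR-CT against 64, 62 and 65 in TR-DS (two-sided exact permutation test, p = 0.3, smallest possible p = 0.1). TR-CT replicate 3 lacked 12 miRNAs, more than either other control. miR2111a, miR171e and novel_miRNA_CUUCUGUUAGCUCUUAUGGA_2 were counted in TR-CT replicates 1 and 2 and TR-DS replicate 2 only.

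Whether drought differed in effect between taproot and lateral root tips was tested as an interaction over the 12 libraries. None of the 75 miRNAs (0.0%) passed by edgeR's quasi-likelihood test, 5 (6.67%) had an unadjusted p of 0.05 or below, and edgeR's likelihood ratio test gave 3 calls (miR172a, miR156a and miR166f). Among the 5, miR172a had an interaction log2 difference (lateral minus taproot) of -7.55 (SE 2.25), with an edgeR adjusted p of 0.167 by the quasi-likelihood and of 0.00445 by the likelihood ratio test. The 16-nt novel_miRNA_CCGGUCUGCUCGUCCC had one of 2.42 (SE 0.83, edgeR adjusted p = 0.202), and novel_miRNA_ACUAUUGUGGAGCACCUGCUC one of -4.89 (SE 1.96, edgeR adjusted p = 0.378). For miR156a (interaction -11.35, SE 3.78) and miR166f (interaction -15.95, SE 3.87), TR-DS replicate 3 was the only drought library of the taproot with counts. miR166d had an interaction of -0.22 (SE 1.51) and miR171d one of 3.82 (SE 2.25).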

How the data were processed

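Root tips were sampled for small RNA sequencing (TruSeq Small RNA kit, size selection of 18 to 30 nt). Per the study's methods the authors trimmed the reads with Cutadapt to at least 15 nt and checked them with FastQC. Mapping, identification and counting were done with ShortStack and Bowtie, and the known sequences of miRBase were used. What was deposited is a table of raw counts, 1 column a library, and all columns matched a sample. Tool versions and the handling of reads that fit several miRNAs are not given in the sources used here.

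For the 6 taproot libraries edgeR 4.0.16 was run in R 4.3.3. miRNAs with at least 1 count in total were kept, TMM factors (0.622 to 2.54) were computed, and TR-DS was compared with TR-CT by the quasi-likelihood F test (Benjamini-Hochberg, threshold 0.05). p-values set the difference between groups against the spread between the 3 replicates of a group, which the labels call biological. edgeR moderates its estimate of that spread across miRNAs. CPM values are normalized with the TMM factors, and log2 CPM used a prior count of 2. Standard errors were taken as the absolute log2FC divided by the square root of F. Groups did not overlap where the lowest library of one exceeded the highest of the other. The interaction with root type used all 12 libraries. Python 3.11.15 was used for tables and plots. The edgeR fit was also run on simulated counts, which did not include the split between libraries seen here, so the run does not cover that feature.

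The miRNAs given in full were the member with the highest mean CPM of each known family, the 5 most abundant sequence-named miRNAs, every miRNA with an unadjusted p of 0.05 or below, without overlap, or called by DESeq2 or with the replicate block, and sequence-named miRNAs that differ at 1 base. Members, lists and roles were chosen with earlier results of these data known. Alternatives were other scalings, DESeq2 1.42.0, edgeR's likelihood ratio and exact tests, stricter filters, a threshold of 0.1, sums by family, a replicate block, 1 fit of all libraries and leaving out each library in turn.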

Additional observations from a re-analysis of the deposited data

How the results depend on the processing

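No adjusted call of the drought comparison was made with RLE factors, with the library size without the 16-nt sequence, by edgeR's exact test, with filterByExpr, with at least 10 counts in every library, at a threshold of 0.1, with counts summed by family, with 1 fit of the 12 libraries or without any single library. Library size alone called 1 of 75 miRNAs (miR166f), DESeq2 1 of 71 (1.41%) and edgeR's likelihood ratio test 2 of 75. Non-overlapping miRNAs numbered 3 of 75 by library size alone, 4 of 75 with RLE factors and 5 of 75 with the library size without the 16-nt sequence. The members can differ between scalings, and miR164c overlapped under the last of these. When single libraries were left out they numbered 6 of 75 (8.0%) to 23 of 74 (31.1%), where 2 libraries in a group make separation easier to meet. The interaction had 3 calls among 75 miRNAs by the likelihood ratio test. The causes were not tested. Of the 75 miRNAs, 26 were missing from at least 1 library, and at these depths a count of 0 allows up to 3 counts.

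The labels do not say whether equal replicate numbers pair the samples, and the values gave no single answer. Deviations from the group means correlated at -0.27, 0.71 and 0.37 for numbers 1, 2 and 3. The value for number 2 was the highest of all pairs. TR-CT replicate 1 correlated best with TR-DS replicate 2 (0.36), and TR-CT replicate 3 with TR-DS replicate 1 (0.42). With the replicate block, 2 of 75 miRNAs (2.67%) passed in the drought comparison, miR171d (log2FC 4.17, edgeR adjusted p = 0.00107) and miR166f. In the interaction 1 of 75 (miR166f) passed with the block. The block also turned the log2FC of miR157a to -0.067, of miR164d to -0.075, of miR2950a to 0.20, of miR530a to -1.15 and of novel_miRNA_UUAGUCCAAGACUCGGCCACA to -0.22.

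None of the following signs belonged to a called miRNA. With all 12 libraries in 1 fit the log2FC turned to -0.0042 for miR156b, -0.48 for miR157a, -0.53 for miR164d, -0.40 for miR167a, -0.18 for miR390a, -0.017 for miR396c, -0.41 for novel_miRNA_CCGGUCUGCUCGUCCC and -0.41 for novel_miRNA_UUAGUCCAAGACUCGGCCACA. Library size alone gave -0.49 for miR164d, -0.62 for miR167a, -0.43 for miR390a and -0.39 for novel_miRNA_UUAGUCCAAGACUCGGCCACA. The library size without the 16-nt sequence gave -0.30 for miR164d, -0.0037 for miR167a, -0.20 for novel_miRNA_CCGGUCUGCUCGUCCC and -0.0013 for novel_miRNA_UUAGUCCAAGACUCGGCCACA. RLE factors gave 0.048 for miR159a, 0.14 for miR168a and 0.18 for miR2950a, and DESeq2 gave 0.048, 0.14 and 0.24. At least 10 counts in every library gave 0.021 for miR159a and 0.042 for miR168a. Sums by family gave -0.32 for novel_miRNA_CCGGUCUGCUCGUCCC and -0.13 for novel_miRNA_UUAGUCCAAGACUCGGCCACA, and filterByExpr gave -0.023 for the latter.

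Without single libraries the log2FC ranged from -0.73 to 1.32 for miR156b, -0.51 to 1.40 for miR157a, -0.54 to 2.22 for miR160b, -0.48 to 0.37 for miR164d, -0.066 to 0.40 for miR167a, -0.71 to 0.20 for miR168a, -5.35 to 0.29 for miR2111a, -1.20 to 1.36 for miR2950a, -0.19 to 0.65 for miR390a, -0.065 to 5.15 for miR393a and -5.28 to 2.22 for miR530a. The ranges were -1.07 to 0.72 for novel_miRNA_CCGGUCUGCUCGUCCC, -1.37 to 0.11 for novel_miRNA_AGUGGAAGGAUUGGAAAGACA, -1.64 to 0.059 for novel_miRNA_UUUGGAAACGCACUUGAAUCG and -1.39 to 0.77 for novel_miRNA_UUAGUCCAAGACUCGGCCACA. The difference in the share of the 16-nt sequence ranged from -4.37 to 12.6 percentage points.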
